A study of Mus musculus with 21 samples.

Results

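The airway secretory genes *Scgb1a1*, *Scgb3a1*, *Scgb3a2*, *Bpifa1*, *Muc5b* and *Cyp2f2* were followed through the single-cell libraries of unchallenged lung, melanoma lung metastases and primary melanomas. They were taken by name, 6 of the 32285 genes in the counts, and the rule itself used no measured value. All hosts carried the mT/mG reporter, so that host cells are red through membrane tdTomato while the transplanted MT-ret melanoma (MM) cells are unlabelled. Beside the lungs of unchallenged hosts, the groups came from young adult male and female hosts with MT-ret fragments under the skin. These were host cells of the tumor microenvironment (TME) taken from lung metastases or from primary tumors, and MM cells from either site. Dissociated cells were frozen before sorting, and host cells were sorted as tdTomato+ or as tdTomato+ CD45-, and no source used here says which libraries had which sort.

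With every barcode counted once, unchallenged lung held 37386 cells in 4 libraries (replicates 1, 4, 5 and 6), the lung metastasis TME 7648 in 4 (replicates 1-3, 4, 5 and 6), the primary tumor TME 6477 in 4, and sorted MM cells 11948 and 36900 in 2 libraries each from metastases and primary tumors. Libraries totalled 1777036 to 60339415 unique molecular identifiers (UMIs, each 1 captured RNA molecule). Unchallenged lung replicate 6 stood apart with 25966 cells and a median of 1605 UMIs per cell, against 3641 to 4695 in the other 3 lung libraries. Any pair of different libraries shared at most 1.20% of the barcodes of the smaller one. The library names put replicates 5 and 6 in run 3, replicate 4 in run 2, and replicates 1 and 1-3 in run 1, and do not say what a run was. The library names give each lung replicate a mouse of its own, replicates 5 and 6 of metastases and primary tumors came from the same mice, and replicates 1-3 are several mice taken as 1 sample.

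Club cells are the non-ciliated secretory cells of the conducting airways, and in mice they make most of the fluid proteins of the small airways and much of the enzymes that oxidise inhaled chemicals. *Scgb1a1* encodes the club cell secretory protein, *Scgb3a1* and *Scgb3a2* related small secretoglobins, *Bpifa1* an antimicrobial, surface-active protein of the upper airway, *Muc5b* the gel-forming mucin of airway clearance, and *Cyp2f2* a cytochrome P450 that activates naphthalene. Ciliated cells beat the mucus along, and alveolar type 2 (AT-2) cells make the surfactant of the alveoli. Droplet suspensions also hold free RNA, which enters droplets of every cell type, so UMIs of these genes in leukocytes and fibroblasts, which are not known to make them, were read as the background of each library.

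On GRCm38, *Scgb1a1* lies on chromosome 19 (9083636-9087958, minus strand), *Scgb3a1* on chromosome 11 (49663610-49665118, plus strand) and *Bpifa1* on chromosome 2 (154142880-154149219, plus strand). *Muc5b* and *Cyp2f2* share chromosome 7 but lie far apart, at 141839070-141873084 and 27119909-27133660, both on the plus strand. All 5 are protein coding. The RefSeq promoter table (GRCm38.p6) held a window of 250 bases before to 50 after the start for 3 of the 6 genes, shown because these genes were high in the same cells. Capitals mark the letters searched on both strands, CTCAAG and CAAGTG for NKX2-1, the homeodomain factor of lung epithelium, and TGTTTAC and TGTTTGC for FOXA factors, and each run is on the gene's own strand.
Scgb3a1, chr11:49663345-49663644, plus strand: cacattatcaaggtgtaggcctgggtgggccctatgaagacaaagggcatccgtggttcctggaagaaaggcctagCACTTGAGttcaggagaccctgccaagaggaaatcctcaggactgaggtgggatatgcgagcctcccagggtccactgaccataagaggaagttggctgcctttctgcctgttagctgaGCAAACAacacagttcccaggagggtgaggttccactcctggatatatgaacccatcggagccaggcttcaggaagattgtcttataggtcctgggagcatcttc
Bpifa1, chr2:154142630-154142929, plus strand: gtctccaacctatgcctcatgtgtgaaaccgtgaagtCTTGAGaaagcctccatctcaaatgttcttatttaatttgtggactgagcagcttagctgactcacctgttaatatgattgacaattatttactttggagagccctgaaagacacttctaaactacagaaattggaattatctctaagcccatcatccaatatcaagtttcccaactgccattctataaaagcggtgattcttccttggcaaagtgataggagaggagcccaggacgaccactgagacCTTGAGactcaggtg
Cyp2f2, chr7:27119705-27120004, plus strand: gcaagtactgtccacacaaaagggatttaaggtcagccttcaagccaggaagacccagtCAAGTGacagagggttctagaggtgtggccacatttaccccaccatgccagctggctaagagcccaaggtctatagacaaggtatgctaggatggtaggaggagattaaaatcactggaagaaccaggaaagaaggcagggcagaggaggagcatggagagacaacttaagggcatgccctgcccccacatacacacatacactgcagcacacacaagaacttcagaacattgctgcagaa

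All 3 windows held NKX2-1 letters. In *Scgb3a1* the reversed CAAGTG and CTCAAG overlapped in 1 stretch from base -174 before the start, and reversed TGTTTGC began at -55. *Bpifa1* held CTCAAG reversed at -213 and at 36 after the start, and *Cyp2f2* held CAAGTG at -191. At least 1 of the 2 NKX2-1 strings occurred in 26.4% of all 32851 promoter windows of the same length and at least 1 FOXA string in 8.48%, so these matches are a description of the letters only.

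Club cells formed 1 cluster of 1550 cells, found without the 6 genes among the variable genes, in which 13 of 16 other club markers were raised. The cluster was led by *Ltf*, *Bpifb1*, *Reg3g*, *Tff2* and *Krt15*, of which the first 4 encode secreted mucosal proteins and *Krt15* a keratin of basal cells. It held 5, 3, 51 and 1336 cells of unchallenged lung replicates 1, 4, 5 and 6, and 4, 0, 88 and 54 of lung metastasis replicates 1-3, 4, 5 and 6. Only the 4 libraries of replicates 5 and 6 passed the minimum of 10 cells. Another 9 cells of the cluster came from primary tumors, and those held 0 UMIs of all 6 genes. Its cells from lung and metastasis libraries held 336.1 to 2785 *Scgb1a1* UMIs each on average. The 6 genes took no part in drawing or naming the cluster. The club label of these 9 cells is in doubt, and they entered no comparison.

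*Scgb1a1* was the highest of the 6 genes in club cells. The summed club cells of unchallenged lung held 1485 *Scgb1a1* UMIs per cell in replicate 5 and 336.1 in replicate 6, and those of lung metastases 1563 in replicate 5 and 367.1 in replicate 6. The 2 replicates 5 were high and the 2 replicates 6 low in either tissue, so the groups overlapped fully. The few club cells of the other libraries held 2785 (lung replicate 1, 5 cells), 596 (lung replicate 4, 3 cells) and 684.2 (metastasis replicates 1-3, 4 cells) *Scgb1a1* UMIs per cell. Across all droplets of a library, club cells were 0.849% of cells in lung replicate 5 and held 42.95% of its *Scgb1a1* UMIs. In lung replicate 6 they were 5.15% of cells with 67.96% of those UMIs, in metastasis replicate 5 they were 1.70% with 62.59%, and in metastasis replicate 6 they were 5.21% with 64.75%.

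All 5 other genes were also highest in club cells. Over the 4 libraries the mean level in club cells was 35.7 ± 9.85 UMIs per cell for *Scgb3a1* (SD, n = 4), 29.4 ± 18.2 for *Scgb3a2*, 21.8 ± 20.8 for *Bpifa1*, 3.14 ± 2.23 for *Muc5b* and 17.4 ± 10.0 for *Cyp2f2*. For each of the 6 genes, the lowest club library of the 4 lay above the highest of these 4 libraries in every other class of the ranking (ciliated, AT-2, neutrophil, macrophage, T cell, BEC and fibroblast). Relative to leukocytes of the same library, club cells held 33.8 to 242 times as many UMIs per cell over the 6 genes and 4 libraries. With every cell thinned to 1000 UMIs the range was 13.0 to 239 times, without *Muc5b* of metastasis replicate 5, of which thinned leukocytes held no UMI. Clusters were drawn from the same counts, so these contrasts between classes are descriptions and carry no test.

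**Figure D1:**
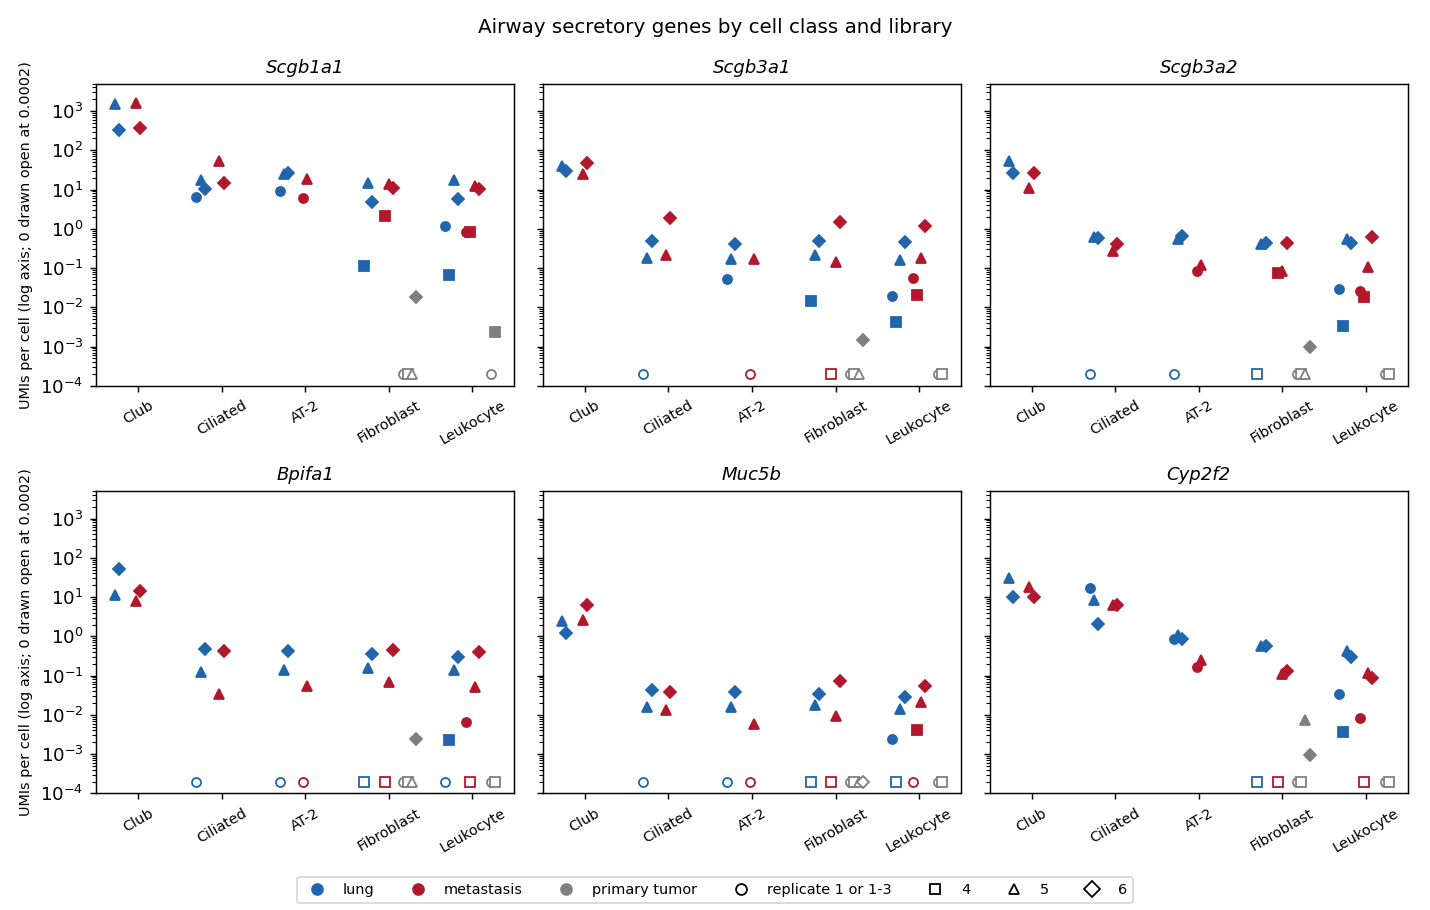
UMIs per cell (log axis, 0 drawn as open symbols at the bottom) of the 6 genes in 5 cell classes, 1 symbol per library with at least 10 cells of the class (circle replicate 1 or 1-3, square 4, triangle 5, diamond 6), blue for unchallenged lung, red for lung metastasis TME and grey for primary tumor TME. Club cells lie above the other classes in every panel except that of *Cyp2f2*. There ciliated cells of lung replicate 1 held 17.6 UMIs per cell, and club cells of lung replicate 6 and metastasis replicate 6 held 9.95 and 9.96. The grey symbols sit at or near 0.

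*Cyp2f2* was also high in ciliated cells. Ciliated cells held 17.6 *Cyp2f2* UMIs per cell in lung replicate 1, 8.56 in replicate 5 and 2.02 in replicate 6, and 6.27 and 6.35 in metastasis replicates 5 and 6. Leukocytes of these libraries held 0.0344, 0.431, 0.295, 0.115 and 0.0861. The ciliated levels were thus 510, 19.9, 6.85, 54.7 and 73.8 times those of leukocytes, and the ciliated and leukocyte ranges did not overlap. With every cell thinned to 1000 UMIs they were 171, 11, 5.53, 30.2 and 25.9 times. Ciliated cells held 48.2% of the *Cyp2f2* UMIs of lung replicate 5, 42.9% of replicate 6, 47.3% of metastasis replicate 5 and 33.8% of metastasis replicate 6, and club cells 19.9%, 38.0%, 41.0% and 56.1%.

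The low *Cyp2f2* level of lung replicate 6 went with its ciliated clusters. Of its 7417 ciliated cells 7222 were in cluster 2, with a median of 1627 UMIs and 1.82 *Cyp2f2* UMIs per cell. In cluster 20, the ciliated cluster with the deepest cells, *Cyp2f2* was 19.2, 10.8 and 9.33 UMIs per cell in lung replicates 1, 5 and 6 and 8.35 and 8.85 in metastasis replicates 5 and 6. Per cell the 3 lung libraries were higher, but in CPM, UMIs per 1000000 UMIs of the class, they overlapped, at 2582, 1642 and 1816 in lung and 1697 and 1289 in metastases.

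*Scgb1a1* was next highest in ciliated and AT-2 cells. Mean levels over the libraries of replicates 5 and 6 were 23.8 ± 19.6 *Scgb1a1* UMIs per cell in ciliated cells (n = 4) and 23.6 ± 4.75 in AT-2 cells (n = 3), which overlapped. Neutrophils (11.5 ± 5.59), blood endothelial cells (BEC, 11.01 ± 4.74), macrophages (10.96 ± 4.79) and fibroblasts (10.9 ± 4.31) followed and overlapped with each other, and none of these types is known to make *Scgb1a1*. For *Scgb3a1*, *Scgb3a2*, *Bpifa1* and *Muc5b* every class after club cells overlapped with the next in the order of means over these libraries. Outside this ranking *Scgb3a1* was higher in BEC than in leukocytes. In metastasis replicates 1-3, BEC held 52 *Scgb3a1* UMIs in 95 cells and leukocytes 34 in 604, or 0.315 and 0.0118 per cell after thinning. Without thinning it was 0.0273 and 0.0197 per cell in lung replicate 1, and 0.0128 and 0.00417 in lung replicate 4. The part of free RNA in this was not tested. AT-2 cells came next after ciliated cells for *Cyp2f2* with 0.743 ± 0.445 UMIs per cell (n = 3), below all ciliated libraries and overlapping with fibroblasts at 0.341 ± 0.257 (n = 4). Relative to leukocytes of the same library, AT-2 *Cyp2f2* was 24.5-fold in lung replicate 1, 2.57-fold in replicate 5, 2.96-fold in replicate 6, 20.1-fold in metastasis replicates 1-3 and 2.16-fold in replicate 5. With every cell thinned to 1000 UMIs the ratio was 1.33, 2.25 and 1.46 in lung replicates 5 and 6 and metastasis replicate 5, and AT-2 cells of the other 2 libraries then held no *Cyp2f2* UMI.

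*Scgb1a1* per cell was 1.01 to 5.53 times the leukocyte level in ciliated cells and 1.46 to 7.91 times in AT-2 cells of the libraries with at least 10 cells, and 0.743 to 3.39 and 0.889 to 3.57 times after thinning to 1000 UMIs. The highest ratios were those of lung replicate 1, with 20 ciliated and 19 AT-2 cells. Among larger samples, it was 52.9 UMIs per cell in ciliated cells of metastasis replicate 5 against 12.4 in leukocytes, and 27.0 in AT-2 cells of lung replicate 6 against 5.61, which thinning took from 4.26 to 1.59 times and from 4.82 to 3.06 times. The medians over cells were 14 and 12 in the former pair and 4 and 3 in the latter, so the means lay well above the median cell in the ciliated and AT-2 cells. No doublet caller was run, and the part of doublets in this was not tested.

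Single club cells differed widely in what they carried. Each cell was thinned to 1000 UMIs to equalise depth, which 51, 1304, 85 and 53 club cells of lung replicates 5 and 6 and metastasis replicates 5 and 6 allowed. The median cell then held 207, 61, 177 and 4 *Scgb1a1* UMIs, and the highest cell 640, 575, 716 and 616. Metastasis replicate 6 was low in its median cell, while its highest cell lay within the range of the highest cells of the other libraries. Against the 99th percentile of thinned leukocytes of the same library, 64.7%, 73.0%, 80.0% and 34.0% of club cells lay above for *Scgb1a1*.

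The genes were also unevenly combined. *Cyp2f2* lay above the leukocyte range in 80.4%, 57.4%, 70.6% and 39.6% of the club cells of these 4 libraries, and *Muc5b* in 25.5%, 10.51%, 20.0% and 13.2%. The range of *Muc5b* ended at 0 UMIs in both replicates 5 and at 1 in both replicates 6, and club cells with any *Muc5b* UMI were 25.5%, 27.7%, 20.0% and 24.5%. *Bpifa1* lay above the range in 31.4%, 51.9%, 18.8% and 13.2%, highest in lung replicate 6. The range was therefore also set to the highest of the 4 libraries for each gene, a choice made after seeing the data. The shares were then 80.4%, 57.4%, 56.5% and 18.9% for *Cyp2f2*, 13.7%, 10.51%, 14.1% and 13.2% for *Muc5b*, and 29.4%, 51.9%, 9.41% and 13.2% for *Bpifa1*. With this equal range, all 6 genes were above it in 7 of 51, 67 of 1304, 3 of 85 and 0 of 53 cells, and none of them in 7, 99, 8 and 22 cells. Metastasis replicate 6 had the largest share of club cells with none of the 6 genes above that range, 41.5% against 7.59% to 13.7% in the other 3 (34.0% against 5.88% to 7.84% with each library's own range). Its summed club cells also had the highest sums of basal markers, 785.5 CPM against 119.5 to 530.6, and of fibroblast markers, 752.0 against 207.2 to 502.1. The 16 other club markers summed to 6459 CPM there and to 8543 to 14410 in the other 3 libraries. The part of these markers in the result was not tested.

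**Figure D2:**
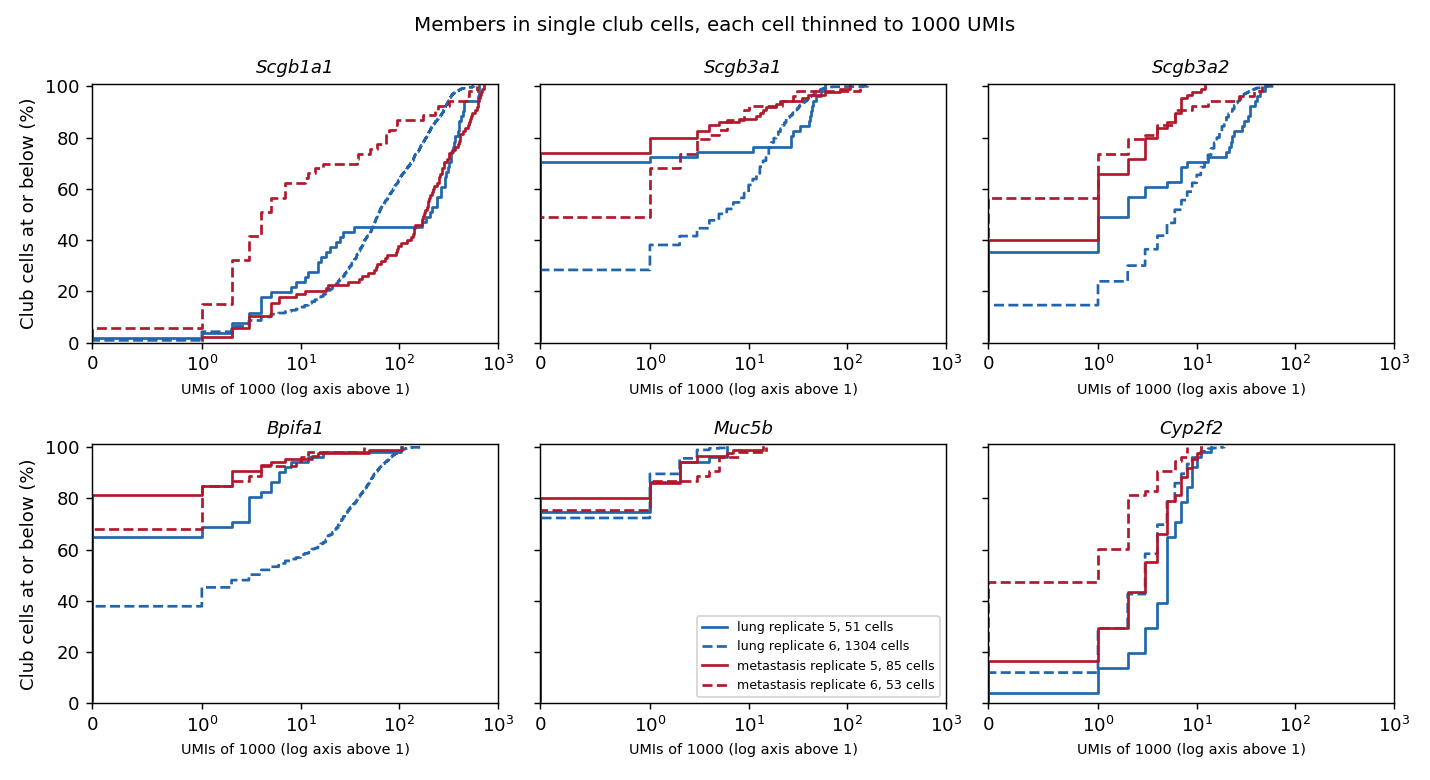
Share of club cells (percent) at or below each number of UMIs after thinning every cell to 1000 UMIs (log axis above 1), 1 line per library, blue for unchallenged lung, red for lung metastasis TME, solid for replicate 5 and dashed for replicate 6. The highest cells hold 575 to 716 *Scgb1a1* UMIs in every library, and *Bpifa1* of lung replicate 6 lies to the right of the other 3 lines.

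All 6 pairs among *Scgb3a1*, *Scgb3a2*, *Bpifa1* and *Muc5b* had a positive rank correlation over club cells in each of the 4 libraries, from 0.14 to 0.86. Spearman's rho between *Scgb3a1* and *Scgb3a2* over thinned club cells was 0.72, 0.69, 0.43 and 0.46 in the 4 libraries, between *Scgb3a1* and *Muc5b* 0.86, 0.42, 0.69 and 0.53, and between *Scgb3a2* and *Muc5b* 0.63, 0.35, 0.42 and 0.44. *Scgb3a1* with *Bpifa1* had rho of 0.73, 0.40, 0.46 and 0.40, and *Scgb1a1* with *Scgb3a2* 0.70, 0.54, 0.33 and 0.48. Club cells with a *Muc5b* UMI held a mean of 34.7, 18.5, 23.9 and 18.7 *Scgb3a1* UMIs, and those without one 1.47, 7.80, 0.68 and 1.12. With *Cyp2f2*, rho was 0.29, 0.39, 0.27 and 0.17 for *Scgb1a1*, 0.15, 0.31, 0.32 and 0.01 for *Scgb3a2* and 0.16, 0.16, 0.11 and -0.31 for *Bpifa1*, and from -0.17 to 0.07 for *Scgb3a1* and -0.12 to 0.14 for *Muc5b*. *Scgb1a1* with *Bpifa1* had rho of 0.18, -0.17, -0.37 and 0.10. Cells of 1 library share its free RNA, and these values describe the cells without a test.

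The genes most like each member were found among all genes by fixed measures. Over 58 sums of class and library, *Bpifb1*, a secreted protein of the *Bpifa1* family, had the highest Pearson correlation with *Scgb3a1* (0.907), *Scgb3a2* (0.893), *Bpifa1* (0.927) and *Muc5b* (0.952). *Wfdc2*, a secreted protease inhibitor, led for *Scgb1a1* (0.856) and *Sec14l3*, a lipid-transfer protein of airway epithelium, for *Cyp2f2* (0.934). Over the 1336 club cells of lung replicate 6 the leading genes by Spearman's rho were *Hp* for *Scgb1a1* (0.598), *Bpifb1* for *Scgb3a1* (0.727) and *Muc5b* (0.460), *Wfdc2* for *Scgb3a2* (0.668), *Ltf* for *Bpifa1* (0.794) and the carbonyl reductase *Cbr2* for *Cyp2f2* (0.601). Sums of 1 library share its free RNA and depth. Of the 34 genes named Scgb only 4 had a UMI in club cells, and 28 had none in any cell.

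The first comparison asks whether club cells of metastasis-bearing lungs held these transcripts at other levels than those of unchallenged lung. CPM of the summed club cells was compared in 2 against 2 libraries with edgeR's quasi-likelihood test. None of the 6 genes passed at an adjusted p of 0.05 by edgeR or by DESeq2, where 1.16% of the 4586 genes tested passed by edgeR, and 2 of the 6, *Scgb3a2* and *Bpifa1*, had an unadjusted p under 0.05, as did 455 of the 4586 genes.

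*Scgb3a2* had 9936 and 10170 CPM in lung replicates 5 and 6 and 2517 and 4713 in metastasis replicates 5 and 6. Both metastasis libraries were lower in CPM, without overlap, but in UMIs per cell the groups overlapped, at 54.7 and 25.8 in lung and 11.3 and 26.0 in metastases. The log2 difference was -1.49 (SE 0.57), with an edgeR p of 0.0246 and an adjusted p of 0.384. Every metastasis library lay below every lung library in 15.8% of genes, and 1 of the 6 members did so.

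*Muc5b* was the member with the opposite order, at 445.2 and 470.5 CPM in lung and 571.4 and 1151 in metastases. Its log2 difference was 0.89 (SE 0.52, edgeR adjusted p = 0.655), and 17.9% of genes had every metastasis library above every lung library. The few club cells of libraries not fitted did not keep this order. They held 2740 (lung replicate 1, 5 cells), 0 (lung replicate 4, 3 cells) and 5788 CPM (metastasis replicates 1-3, 4 cells) of *Muc5b*.

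*Bpifa1* had 2094 and 20820 CPM in lung and 1821 and 2659 in metastases. Lung replicate 6 alone was high, and the other 3 libraries were close together. The log2 difference was -2.23 (SE 0.86, edgeR adjusted p = 0.391), and it became -3.10 with an adjusted p of 0.0171 without lung replicate 5, which leaves that high library as the lone lung sample, taken to vary like the metastasis samples.

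*Scgb1a1* (269700 and 132500 CPM in lung, 349400 and 66550 in metastases), *Scgb3a1* (7229 and 12040, 5615 and 8584) and *Cyp2f2* (5662 and 3922, 4114 and 1806) overlapped between the groups. Their log2 differences were 0.29 (SE 0.89), -0.39 (SE 0.57) and -0.51 (SE 0.69), with edgeR adjusted p of 0.967, 0.893 and 0.883. With 2 libraries a group these intervals are wide, and 4-fold changes set into simulated counts of this comparison were found for 44.0% of the changed genes.

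**Figure D3:**
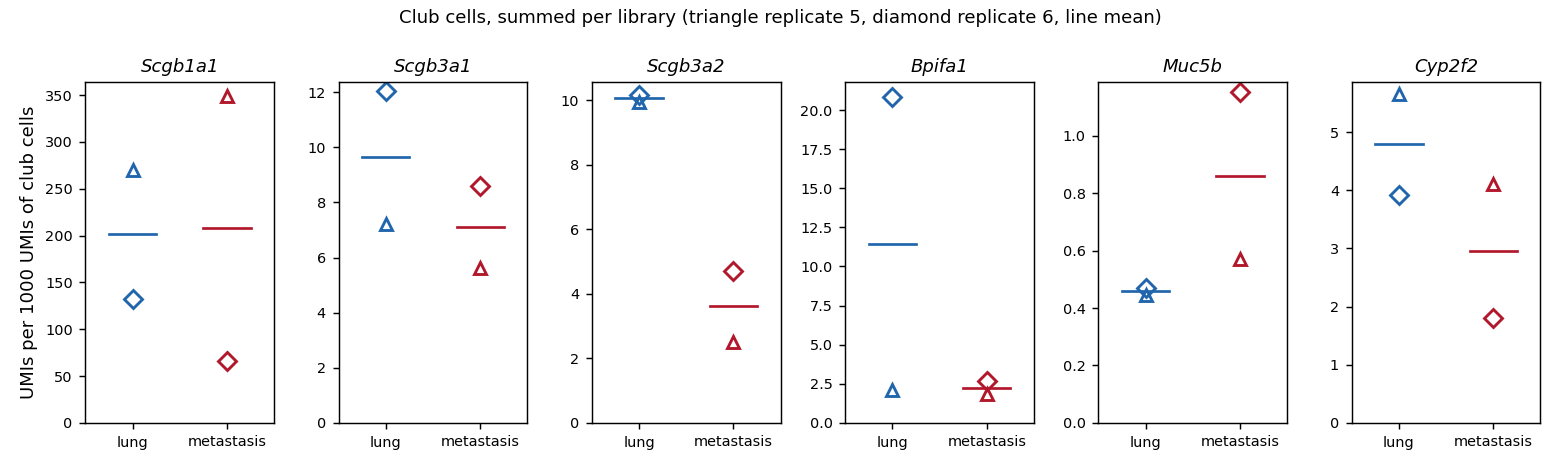
UMIs of each gene per 1000 UMIs of the summed club cells, 1 symbol per library (triangle for replicate 5, diamond for replicate 6) with the mean as a line, for unchallenged lung and lung metastasis TME. *Scgb3a2* is lower and *Muc5b* higher in both metastasis libraries, *Bpifa1* is high in 1 lung library, and the other genes overlap.

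Markers of other cells moved with these libraries. In club cells of lung replicate 6, 11 of 11 macrophage markers summed to 7429 CPM and 7 of 7 neutrophil markers to 4277 CPM. In the other 3 libraries 6 to 11 macrophage markers summed to 408.9 to 911.7 CPM and 3 to 5 neutrophil markers to 35.6 to 256.4 CPM. The 8 melanoma markers summed to 5257 and 1595 CPM in club cells of metastasis replicates 5 and 6 and to 231.5 and 211.0 in lung. Their part in the differences was not tested.

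Other airway genes were read beside the members from 3 lists. Of 25 other secreted airway proteins 14 were tested in club cells, 1 rose, none fell, and 3 had an unadjusted p under 0.05 by edgeR. Over all 4586 genes tested 20 rose, 33 fell and 455 had such a p. Of the 14 secreted genes, 11 had a positive log2 difference, with a median of 1.07 against 0.03 over all genes. The gene that rose was *Lcn2*, the iron-scavenging lipocalin, at 14.2 and 42.5 CPM in lung and 180.3 and 819.1 in metastases (log2 3.91, SE 0.72, edgeR adjusted p = 0.0322). *Ltf*, lactoferrin, had 64.1 and 2916 CPM in lung and 802.5 and 6113 in metastases (edgeR adjusted p = 0.842). *Wfdc2* (4630 and 3646 in lung, 5523 and 5106 in metastases) and the haptoglobin gene *Hp* (1588 and 858.9, 3708 and 1625) were the other 2 of the 3 highest of this list in CPM and did not pass either. Of 20 xenobiotic enzymes 17 were tested and 0 passed at the adjusted threshold by edgeR, 1 had an unadjusted p under 0.05, and the median was -0.52, with *Aldh1a1*, a retinal dehydrogenase, at 1745 and 1319 CPM in lung and 706.0 and 402.8 in metastases. *Cbr2* had 5502 and 3803 CPM in lung and 8411 and 3082 in metastases, and *Gsto1*, a glutathione transferase, 391.7 and 1204 and then 160.0 and 520.3. Of 18 regulators and secretory pathway genes 14 were tested, 0 passed by edgeR and 3 had an unadjusted p under 0.05, with *Nkx2-1* at 317.0 and 105.4 CPM in lung and 83.8 and 144.3 in metastases. The transcription factor genes *Hes1* (544.9 and 227.9 in lung, 256.5 and 251.8 in metastases) and *Klf5* (195.9 and 119.2, 96.5 and 332.3) overlapped between the groups in CPM.

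In ciliated cells (2 metastasis against 3 lung libraries) none of the 5 members tested passed by edgeR or DESeq2 or had an unadjusted p under 0.05, where 0.362% of 10499 genes passed by edgeR. *Cyp2f2* had 2476, 1505 and 992.4 CPM in lung replicates 1, 5 and 6 and 1545 and 1150 in metastasis replicates 5 and 6, so that the metastases lay inside the lung range (log2 -0.24, SE 0.53, edgeR adjusted p = 0.930). *Scgb1a1* had 902.9, 3029 and 5043 CPM in lung and 13040 and 2708 in metastases (log2 1.43, SE 0.83, edgeR adjusted p = 0.669). Different clusters made up these sums: cluster 21 held 60 and 7 ciliated cells of metastasis replicates 5 and 6 and none of lung. In metastasis replicate 5 *Scgb1a1* was 38900 CPM in cluster 2, 45710 in cluster 21 and 3974 in cluster 20. In cluster 20 of the other libraries fitted it was 903.0, 2751 and 1059 CPM in lung replicates 1, 5 and 6 and 2184 in metastasis replicate 6. *Scgb3a1* was 340.8 CPM in metastasis replicate 6 and at most 246.2 elsewhere. Its log2 difference of 0.81 (edgeR adjusted p = 0.854) became 2.86 with an adjusted p of 9.41e-05 without lung replicate 6. The background of *Scgb3a1* was of similar size. In metastasis replicate 6 it was 282.7 CPM in leukocytes and 282.2 in fibroblasts, and in lung replicate 6 it was 215.8 in leukocytes. The part of free RNA was not tested. Without the filter on low counts *Bpifa1* passed in ciliated cells (log2 -1.58, edgeR adjusted p = 0.0401).

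In AT-2 cells (2 against 3 libraries) none of the 5 members tested passed by edgeR or DESeq2, and 0.0% of 7530 genes passed by edgeR, with 675 at an unadjusted p under 0.05 and 7 calls by DESeq2. *Cyp2f2* had 92.6, 159.9 and 428.1 CPM in lung replicates 1, 5 and 6 and 20.0 and 63.7 in metastasis replicates 1-3 and 5. Both metastasis libraries were below those of lung, as in 16.5% of the genes tested. The log2 difference was -2.10 (SE 0.68), with an edgeR adjusted p of 0.543. Without the filter on low counts, 351 genes passed in AT-2 cells, among them *Cyp2f2* (log2 -2.03, edgeR adjusted p = 0.00889), *Scgb3a2* (-2.24, 0.00679) and *Bpifa1* (-2.63, 0.00669). The last 2 were close to the leukocyte background in both replicates 5. AT-2 cells of metastasis replicate 5 held 0.118 and 0.0529 UMIs per cell, and leukocytes 0.104 and 0.0521. In lung replicate 5 these were 0.534 and 0.140 against 0.550 and 0.140, and in lung replicate 6 0.660 and 0.423 against 0.433 and 0.297. Metastasis replicates 1-3 held 1 and 0 such UMIs in 12 AT-2 cells. The part of free RNA was not tested.

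The next comparisons ask how high the background of these genes was in fibroblasts and leukocytes of each tissue.

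*Scgb1a1* in leukocytes was 1.16, 0.0667, 17.1 and 5.61 UMIs per cell in lung replicates 1, 4, 5 and 6, and 0.834, 0.839, 12.4 and 10.4 in metastasis replicates 1-3, 4, 5 and 6. Run 3 was high and runs 1 and 2 low in both tissues, and the groups overlapped. Within run 3, 94.7% to 100% of leukocytes held at least 1 *Scgb1a1* UMI, with median leukocytes at 15, 3, 12 and 10 UMIs. Types within a library were closer to each other than libraries were, but not equal. In lung replicate 5 macrophages held 16.8, NK cells 16.8 and B cells 14.0 UMIs per cell, and in lung replicate 4 these held 0.0805, 0.0817 and 0.0454. In lung replicate 6, B cells were higher, with 9963 UMIs in 1227 cells against 5690 in 1038 NK cells.

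Fibroblasts of the same libraries also carried these UMIs. *Scgb1a1* was 0.114, 14.4 and 4.92 UMIs per fibroblast in lung replicates 4, 5 and 6, and 2.15, 13.6 and 10.8 in metastasis replicates 4, 5 and 6. The log2 ratio of fibroblasts to leukocytes was 0.70, -0.24, -0.19, 1.35, 0.13 and 0.05 in these libraries. Its mean was 0.30 (SD 0.61, n = 6), above 0 in 4 of 6 libraries, with p = 0.4062 in a two-sided exact sign-flip permutation test, whose smallest possible p is 0.03125. The highest ratio came from metastasis replicate 4 with 13 fibroblasts. All 3 metastasis libraries were above 0 (mean 0.51), and 1 of the 3 lung libraries was (mean 0.09). A test of 6 libraries that does not reject cannot show that the classes were equal.

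Cells classed as melanoma from their markers occurred in the TME libraries and in the sorted MM libraries. In the TME of metastasis replicate 5, 2342 of 5166 cells were of this class, although the tdTomato+ gate should leave out unlabelled MM cells, and what these cells are was not tested. They held 14.2 *Scgb1a1* UMIs each, close to the 12.4 of leukocytes and 13.6 of fibroblasts there. In the sorted MM library of metastasis replicate 5, 11208 melanoma cells held 0.00866 each.

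The proportions of the genes to each other were then set side by side across classes. For each 100 *Scgb1a1* UMIs, leukocytes held 0.965, 8.001, 1.43 and 11.5 *Scgb3a1* UMIs in lung replicates 5 and 6 and metastasis replicates 5 and 6. Fibroblasts held 1.48, 10.1, 1.02 and 13.9, and club cells 2.68, 9.09, 1.61 and 12.9. Both replicates 6 were high and both replicates 5 low in all 3 classes. *Scgb3a2* per 100 *Scgb1a1* was 3.22, 7.72, 0.840 and 5.86 in leukocytes and 3.68, 7.67, 0.720 and 7.08 in club cells of the same libraries. *Bpifa1* departed in lung replicate 6, at 15.7 in club cells, 7.15 in fibroblasts and 5.30 in leukocytes. *Cyp2f2* was 11.4 per 100 in fibroblasts of lung replicate 6 against 5.25 in leukocytes and 2.96 in club cells, and ciliated cells, the other holders of *Cyp2f2* RNA, had 19.7. In metastasis replicate 6, club cells departed for *Cyp2f2*, at 2.71 against 0.828 in leukocytes and 1.20 in fibroblasts, and for *Muc5b*, at 1.73 against 0.510 and 0.687. *Muc5b* per 100 *Scgb1a1* in the other 3 libraries was 0.165, 0.355 and 0.164 in club cells and 0.0822, 0.513 and 0.168 in leukocytes.

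**Figure D4:**
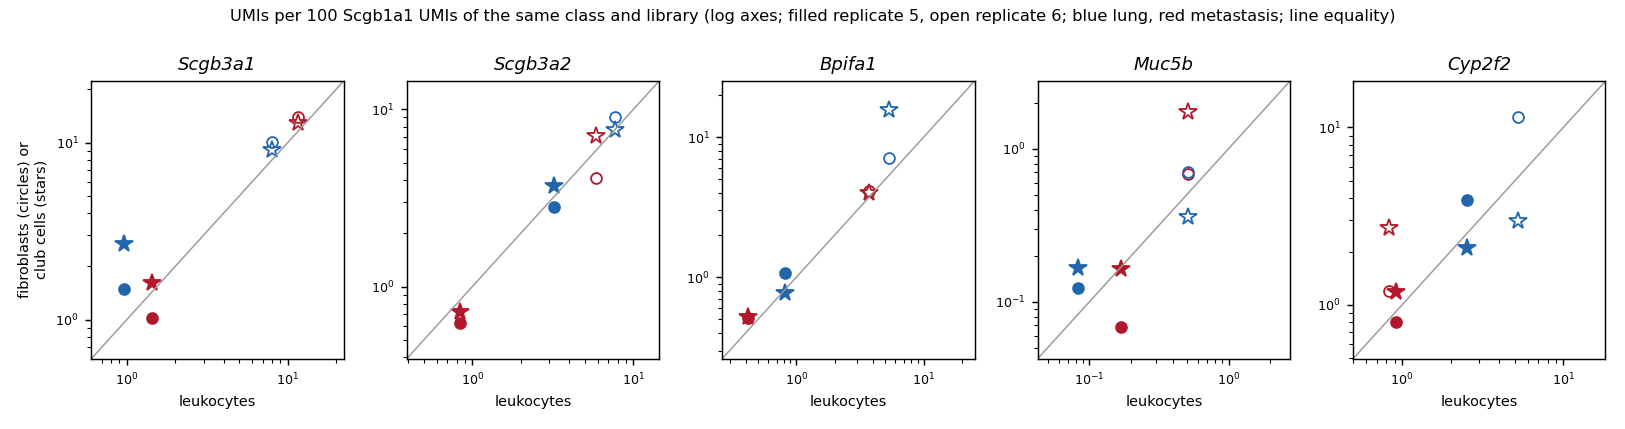
UMIs of 5 genes per 100 *Scgb1a1* UMIs (log axes) in leukocytes, on the x axis, and in fibroblasts (circles) or club cells (stars) of the same library, on the y axis, with the line of equality, blue for unchallenged lung, red for lung metastasis TME, filled for replicate 5 and open for replicate 6. For *Scgb3a1* the open symbols lie at 8.001 and 11.5 on the x axis and the filled ones at 0.965 and 1.43, and the club cells of lung replicate 6 lie far above the line for *Bpifa1*.

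Between metastasis and unchallenged lung, no member passed in fibroblasts or leukocytes with all libraries. In fibroblasts (3 against 3 libraries) 0 of the 5 members tested passed by edgeR or DESeq2, where 0.576% of 10249 genes passed by edgeR. *Cyp2f2* was 0, 0.566 and 0.562 UMIs per fibroblast in lung replicates 4, 5 and 6 and 0, 0.109 and 0.130 in metastases. The log2 difference was -2.54 (SE 0.99), the only one with an unadjusted edgeR p under 0.05 (adjusted p = 0.234). Without lung replicate 4, which held 0 *Cyp2f2* UMIs in 70 fibroblasts, it was -3.07 with an adjusted p of 0.0383. With the replicate numbers as a block, 115 genes were called in place of 59, and again no member.

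In leukocytes (4 against 4) none of the 6 members passed by edgeR or DESeq2 or had an unadjusted p under 0.05, where 0.206% of 12165 genes passed by edgeR. *Cyp2f2* was 0.0344, 0.00371, 0.431 and 0.295 UMIs per leukocyte in lung and 0.00828, 0, 0.115 and 0.0861 in metastases (log2 -2.44, SE 1.57, edgeR adjusted p = 0.803). Within run 3, both lung libraries were higher than both metastasis libraries in CPM, as in 37.1% of genes. The difference there was -2.08 with an edgeR adjusted p of 0.0373, in a fit that called 253 of 13078 genes (1.93%) in place of 25 of 12165 with all libraries. *Scgb1a1* differed by 0.05 (SE 1.33, edgeR adjusted p = 0.9997) in the fit of all libraries.

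Primary tumors, which lie under the skin, held almost none of these transcripts. All 6477 cells of the primary tumor TME held 46 *Scgb1a1* UMIs, 0, 6, 0 and 40 in replicates 1-3, 4, 5 and 6. In replicate 6 the 40 UMIs lay in 10 cells, and 1 fibroblast with no UMI of another member held 31 of them. Leukocytes of primary tumors, 3035 cells, held 6 *Scgb1a1* UMIs and 0 of the other 5 genes, which allows up to 3 UMIs of each over these cells.

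In fibroblasts of lung metastases against primary tumors (3 against 4 libraries) *Scgb1a1*, *Scgb3a1* and *Scgb3a2* passed, where 1.91% of 10249 genes passed and 1.45% passed as higher. The 5 members tested passed the filter on low counts only through the lung and metastasis libraries, and primary tumor fibroblasts held 2 to 37 UMIs of each in 2398 cells. They could thus be called in 1 direction alone, and the calls describe the size of the difference and support nothing about the members as a group. *Scgb1a1* was 563.7, 3264 and 2028 CPM in metastasis replicates 4, 5 and 6 and 0, 0, 0 and 7.44 in primary tumor replicates 1-3, 4, 5 and 6. Every metastasis library was higher, as in 5.42% of genes, with a fitted log2 difference of 9.09 (SE 1.5, edgeR adjusted p = 0.00714). Over summed fibroblasts the CPM ratio was 562. It was 319 without metastasis replicate 5, and against 3 UMIs at least 1953-fold without primary tumor replicate 6 and at least 168-fold in runs 1 and 2 alone. Of the marker lists of other lung cells given next, only that of club cells was higher in every metastasis library. In the same fibroblast sums the 16 other club markers were at 1752, 453.3 and 386.8 CPM in metastasis replicates 4, 5 and 6 (3, 12 and 8 markers with a UMI) and at 24.4 to 62.3 in primary tumors (2 to 7 markers). The sum of metastasis replicate 4 rests on 3 markers in 13 fibroblasts with 49670 UMIs. That library held 0 cells classed as club, ciliated or AT-2. The 10 AT-2 markers were at 0, 711.3 and 257.8 CPM in metastases and at 14.2 to 24.9 in primary tumors, and the 12 ciliated markers at 40.3, 136.2 and 104.5 against 58.4 to 142.0. Their part in the result was not tested.

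*Scgb3a1* was 0, 33.2 and 282.2 CPM in the metastasis libraries and at most 0.604 in primary tumors, and *Scgb3a2* 20.1, 20.5 and 83.6 against at most 0.402. Their fitted log2 differences of 7.83 (SE 1.59) and 6.83 (SE 1.48) had edgeR adjusted p of 0.0231 and 0.0328, and they depend on the prior count because the primary tumor values are near 0. *Bpifa1* (5.63, SE 1.46, edgeR adjusted p = 0.0696) and *Cyp2f2* (5.45, SE 1.44, edgeR adjusted p = 0.0773) did not pass, and *Muc5b*, with 8 UMIs in 504 metastasis fibroblasts and 0 in 2398 of primary tumors, was too low to test. The *Scgb1a1* call, possible in 1 direction alone, held when any 1 library was left out, which again describes only the size of the difference. Those of *Scgb3a1* and *Scgb3a2* were lost without metastasis replicate 5 (adjusted p 0.0633 and 0.107) or 6 (0.130 and 0.145), or without primary tumor replicate 1-3 (0.0532 and 0.0648), 4 (0.0713 and 0.0843), 5 (0.0701 and 0.0851) or 6 (0.149 and 0.197). They were also lost with at least 20 cells a library (0.0730 and 0.115). Within run 3, *Scgb3a1* did not pass (adjusted p 0.0712). *Bpifa1* and *Cyp2f2* gained a call without the filter on low counts (edgeR adjusted p 0.00176 and 0.00282), without lung replicate 4 (0.0163 and 0.00463) and without lung replicate 6 (0.00784 and 0.0149), and *Cyp2f2* also with at least 3 cells a library (0.0301) and within run 3 (0.0421). As replicates 5 and 6 of both sites share mice, the replicate numbers were also fitted as a block. With that term all 5 members tested passed, with 236 genes called in place of 196. All these calls, kept or gained, were possible in 1 direction alone, so they too describe only the size of the difference.

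In leukocytes of the same tissues (4 against 2 libraries) none of the 6 members passed by edgeR, and 0.0164% of 12165 genes did, with 1288 genes at an unadjusted p under 0.05. *Scgb1a1* was 181.0, 214.0, 3794 and 2452 CPM in the metastasis libraries and 0 and 0.431 in primary tumor replicates 1-3 and 4, without overlap (edgeR adjusted p = 0.328), as in 11.4% of genes. An unadjusted p under 0.05 was reached by 5 of the 6 members. Over summed leukocytes of all libraries, metastases held 423 *Scgb3a1*, 219 *Scgb3a2*, 127 *Bpifa1*, 20 *Muc5b* and 42 *Cyp2f2* UMIs in 1487 cells. Most of these lay in metastasis replicate 6, with 362, 184, 118, 16 and 26 UMIs. Set against 3 UMIs in primary tumors, the CPM of *Scgb3a1* was at least 378-fold and that of *Scgb3a2* at least 196-fold higher. Without metastasis replicate 6 these bounds were 68.5 and 39.3, without primary tumor replicate 4 65.5 and 33.9, and without metastasis replicates 1-3 624 and 326. Of the 3035 primary tumor leukocytes 3030 were of runs 1 and 2. Within these runs, metastases held 44 *Scgb3a1*, 25 *Scgb3a2*, 4 *Bpifa1*, 2 *Muc5b* and 5 *Cyp2f2* UMIs in 1089 leukocytes, and the bounds for *Scgb3a1* and *Scgb3a2* were at least 52.6-fold and 29.9-fold. DESeq2 called 306 genes, among them *Scgb1a1*, *Scgb3a1*, *Scgb3a2* and *Cyp2f2*, and the fit with the replicate block called 48, among them *Scgb1a1* and *Scgb3a1*. As primary tumor leukocytes held 0 UMIs of 5 members and 6 of *Scgb1a1*, these members too passed the filter only through lung and metastasis libraries and could be called in 1 direction alone. The primary tumor libraries of this fit are of runs 1 and 2, while metastasis replicates 5 and 6, the higher ones, are of run 3. Metastases and primary tumors also differ in organ as well as in tumor site, and this comparison alone cannot tell those apart. Unchallenged lung, without a tumor, held 2400 CPM of *Scgb1a1* over summed fibroblasts and 2257 over summed leukocytes. Metastases held 3006 and 834.7, and primary tumors 5.35 and 0.357. The part of organ and of tumor site was not tested.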

How the data were processed

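The authors' deposited counts are UMIs per gene and cell, not normalized, from 3' droplet libraries. The submitters' processing notes name Cell Ranger 6.1.1, Seurat 3.2.2 and GRCm38 (mm10), and the authors had removed cells by quantile limits. A deposited table of log-normalized values was not used. Identical libraries were counted once, and 2 library names with no sample of their own, both identical to kept libraries, were left out. Unchallenged lung replicate 1 was matched to its library by elimination.

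Cells were clustered with Seurat 5.3.0 (2000 variable genes without the 6 members, 17 components, 20 neighbors, resolution 0.5) and named from marker lists. Clusters with a tie or too few raised markers stayed unnamed, and the leukocyte and fibroblast sums leave them out. Among them were cluster 5 (3944 cells, led by *Plac8*, *Ms4a4c* and *Ly6c2*) and cluster 13 (1735 cells, led by *Col2a1*, *Ccn2* and *Wnt4*). In metastasis replicate 6, 321 cells were unnamed and 54 were fibroblasts. No doublet was removed. UMIs were summed per class and library with at least 10 cells and fitted with edgeR 4.0.16 (expression filter, TMM, quasi-likelihood, Benjamini-Hochberg over all genes tested), 1 fit per class. DESeq2 1.42.0 was an alternative, and the fits were tested on simulated data. The sign-flip test used a pseudocount of 0.01 UMI per cell. The paired check gave correlations of 0.186, 0.118 and 0.167 for same-numbered fibroblast libraries of metastasis and lung, all over 0.1. For leukocytes they were 0.429 (replicates 1-3 with 1), 0.706 (4), -0.01 (5) and 0.197 (6), in libraries of the same run and different mice. The main leukocyte fit had no term for this. Metastasis and primary tumor replicates 5 and 6 share mice. Positions are from GENCODE vM21. Intervals and floors cover counting error only. Context genes are the 3 highest of each list in club cells and those called. The members, lists and comparisons were chosen with earlier results of these data known.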

Additional observations from a re-analysis of the deposited data

Results flagged for a closer look

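Of 18 groups of 4 to 6 values tested for a library far from the others, 8 had one, where chance gives about 1 in 20. In metastasis leukocytes, replicate 6 was far above the other 3 libraries for *Scgb3a1* (1.20 UMIs per cell), *Scgb3a2* (0.609) and *Bpifa1* (0.391). In primary tumor fibroblasts, replicate 6, with 2052 of these cells, was the only library with UMIs of *Scgb1a1* (0.0180 per cell), *Scgb3a1* (0.00146), *Scgb3a2* (0.000975) and *Bpifa1* (0.00244), and replicate 5 was highest for *Cyp2f2* (0.00735) through 1 UMI in 136 fibroblasts. The chance rate does not apply to these 5, where the other libraries held no UMI of the gene or 1 UMI decided. The 3 flags in leukocytes are all of 1 library, whose cells share its free RNA. They are not independent of each other, so the chance rate does not hold for them as a set either.

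The sorted MM libraries entered none of the fits. Over all their cells, of every class, *Scgb1a1* was above the highest primary tumor TME library (0.0168 UMIs per cell) in the MM libraries of lung metastasis replicates 4 (0.0267) and 5 (0.0612) and of primary tumor replicate 5 (0.0412). In the cells classed as melanoma alone it was 0.0221, 0.00866 and 0.0372, so that those of metastasis replicate 5 were below that library. Few cells carried these UMIs: 189 of 267 in primary tumor replicate 5 lay in 1 cell classed as melanoma, and 297 of 692 in metastasis replicate 5 in 1 cell of no named class. Of the 33 and 90 cells with an *Scgb1a1* UMI in these 2 libraries, 7 and 9 had a barcode that another library also holds, against 174 of 6481 and 290 of 11310 over all cells of these libraries.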

How the results depend on the processing

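Of 590 refits of a member, 514 kept direction and side of the threshold, 24 gained a call, 15 lost one and 37 changed direction. Genes called, in the order club, ciliated, AT-2, fibroblasts against lung, fibroblasts against primary tumor, leukocytes against lung and leukocytes against primary tumor, numbered 53, 38, 0, 59, 196, 25 and 2. DESeq2 gave 82, 54, 7, 167, 301, 247 and 306, and no filter 462, 793, 351, 562, 408, 95 and 1. A minimum of 3 cells gave 32, 7, 7, 144, 265, 47 and 0, and of 20 cells 102 and 106 in fibroblasts. Clustering with the members gave 38 and 0 in leukocytes. Run 3 alone gave 96 in fibroblasts against primary tumor and 253 in leukocytes against lung, and could not be fitted for leukocytes against primary tumor. Ciliated cluster 20 alone gave 108 and no member, an alternative chosen after seeing the data, as were the equal leukocyte range for club cells and the summed CPM ratios to primary tumor by run and without each library. Leaving out 1 library gave 0 to 494, 3 to 294, 0 to 36, 1 to 163, 42 to 405, 1 to 144 and 0 to 1.

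The replicate block gave 148, 210, 128, 115, 236, 94 and 48 calls, and the numbers also carry the run. Metastasis and unchallenged lung libraries share no mouse, while replicates 1-3 of metastases and primary tumors share mice in part. In leukocytes against primary tumor the block called *Scgb1a1* (8.48) and *Scgb3a1* (7.93). Under the block *Scgb1a1* in club cells (-0.25), *Cyp2f2* in ciliated cells (0.14) and *Scgb3a1* in AT-2 cells (0.70) changed direction.

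Other changes of direction, none called, were a minimum of 3 cells for *Scgb1a1* (-0.19) and *Scgb3a1* (0.94) in club and *Scgb3a2* (0.0356) in ciliated cells, run 3 alone for *Cyp2f2* in ciliated cells (0.14) and *Scgb3a1* in fibroblasts against lung (-0.0462), and no filter for *Scgb1a1* in leukocytes against lung (-0.0341). Leaving out 1 library spanned 0 in club cells for *Scgb1a1* (-1.99 to 1.15) and *Cyp2f2* (-1.78 to 0.16). In ciliated cells it did so for *Scgb1a1* (-0.22 to 2.21), *Scgb3a1* (-0.86 to 2.86), *Bpifa1* (-3.44 to 0.81) and *Cyp2f2* (-0.54 to 0.14), and in AT-2 cells for *Scgb1a1* (-2.87 to 0.20) and *Scgb3a1* (-9.77 to 0.72). In fibroblasts against lung the ranges were -0.49 to 0.70 for *Scgb1a1*, -1.88 to 2.28 for *Scgb3a1*, -2.35 to 0.0436 for *Scgb3a2* and -2.31 to 1.18 for *Bpifa1*. In leukocytes against lung they were -0.67 to 0.92 for *Scgb1a1*, -1.73 to 2.73 for *Scgb3a1*, -3.08 to 0.17 for *Scgb3a2*, -4.14 to 1.39 for *Bpifa1* and -1.99 to 1.82 for *Muc5b*. The cause was not tested. The sign-flip mean was 0.06 to 0.51 over its alternatives. Those with 5 or 3 libraries could not reach p under 0.05 whatever the data, and those with 6 or 8 did not reach it. At 2 to 4 libraries a group, simulated 4-fold changes were found for 4.69% (AT-2) to 47.4% (leukocytes against lung) of changed genes.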
